A study of Mus musculus with 40 samples.

Results

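The genes described here encode proteins of the cytosolic ribosome. They are the genes whose symbol consists of Rpl or Rps, a number and at most 1 of the letters a, x, y or l, taken from probe sets that carry 1 gene symbol. There were 55 such genes among the 19937 genes measured, 34 of the large subunit (Rpl) and 21 of the small subunit (Rps). A gene with more than 1 probe set is represented by its brightest, judged by the average signal of the 40 arrays. The RefSeq table used for names holds 77 protein-coding genes that fit the pattern, and 54 of them were members; the other member, Rps4l, is listed there as a transcribed pseudogene. A further 16 pattern genes, among them Rpl3, Rpl11, Rpl32 and Rps24, appeared only in probe sets shared with other symbols and were not members.

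Brains of C57/Bl6 mice at postnatal day 9 were profiled for messenger RNA on 40 Affymetrix arrays, 5 in each of 8 groups. The Vehicle and IDR groups had been given vehicle or IDR-1018, a synthetic immunomodulatory peptide, 10 h before the brain was removed. The LPS group had received lipopolysaccharide, a component of bacterial outer membranes, 6 h before removal, and the LPS with IDR group had also received the peptide 4 h before the LPS. In the 4 LPS/HI groups the pups received vehicle or peptide 4 h before LPS and underwent hypoxia-ischaemia (HI), a model of perinatal brain injury, 14 h after LPS. Tissue was taken 6 h after HI from the left, injured hemisphere and from the right, uninjured hemisphere, which were separate groups with and without peptide. The labels do not say whether an array is 1 animal or whether arrays of the same number share an animal. P-values below measure the spread between these samples.

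Every ribosome is built from a small and a large subunit, and each ribosomal protein is present once in nearly all of them, so its genes are usually transcribed and translated in step. Their messenger RNAs belong to the TOP class, which starts with a cytidine followed by a run of pyrimidines and is translated according to growth signals that pass through mTORC1. Several ribosomal proteins also act outside the ribosome. RPL5, for example, binds MDM2 when ribosome assembly is disturbed, and Rps27l is a p53-inducible paralogue of Rps27. Large numbers of processed pseudogenes and intronic small nucleolar RNA genes accompany this family in mammalian genomes.

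The neuronal marker list showed the tissue: its 12 genes had mean signals from 9.89 (Nefm) to 13.12 (Stmn2) on the log2 scale. The values are RMA signals, so arrays had been brought to a common distribution, and array medians lay between 6.99 and 7.13. Correlations between arrays ran from 0.986 to 0.998, with 0 identical pairs. Sex-linked transcripts were unequal between groups, and a fit with Xist as a covariate called the same number of ribosomal protein genes in each of the 14 contrasts. In whole tissue, fewer cells of a type and less RNA per cell cannot be told apart.

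Start-site sequences are shown because the run of pyrimidines there defines the TOP class. The RefSeq promoter table of assembly GRCm38.p6 held windows of 300 bases (250 before and 50 after an annotated start) for 44 of the 55 members, 53 windows in all. The longest uninterrupted run of C or T within 25 bases of the start had a median length of 7 in the members' windows and of 5 in the 32851 windows of all genes. A run of 8 or more was present in 41.5% of the members' windows against 19.7% of all windows. The sequences below run from 30 bases before to 20 bases after the start, 5′ to 3′ on the strand of the gene. Capitals mark the longest pyrimidine run, or the first where runs are equally long. The genes shown were picked after their values were seen, and their windows are no sample of the family. Rpl27a (chr7:109519165-109519214, plus strand), Rps12 (chr10:23787190-23787239, minus), Rps13 (chr7:116334171-116334220, minus) and Rpl23 (chr11:97782420-97782469, minus) are genes whose signals lay closest to the rest of the family. Rpl28 (chr7:4792935-4792984, plus), Rpl38 (chr11:114668550-114668599, plus) and Rps6 (chr4:86857348-86857397, minus) are examples of a long run across the start. Rpl27 (chr11:101442215-101442264, plus) ran opposite to the family, and Rpl12 (chr2:32961682-32961731, plus) and Rps27l (chr9:66946056-66946105, plus, and a further start at chr9:66946383-66946432) are the members called by the F test over the 8 groups.
Rpl27a: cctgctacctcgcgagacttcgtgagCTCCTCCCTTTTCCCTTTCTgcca
Rps12: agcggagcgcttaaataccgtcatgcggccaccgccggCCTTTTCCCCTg
Rps13: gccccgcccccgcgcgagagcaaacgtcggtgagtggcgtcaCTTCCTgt
Rpl23: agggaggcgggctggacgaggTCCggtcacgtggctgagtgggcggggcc
Rpl28: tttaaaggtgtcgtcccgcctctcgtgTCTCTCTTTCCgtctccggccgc
Rpl38: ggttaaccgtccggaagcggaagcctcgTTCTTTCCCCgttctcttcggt
Rps6: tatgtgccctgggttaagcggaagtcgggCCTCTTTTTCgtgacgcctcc
Rpl27: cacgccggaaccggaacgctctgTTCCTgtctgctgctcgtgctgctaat
Rpl12: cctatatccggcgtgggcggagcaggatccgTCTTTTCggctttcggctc
Rps27l: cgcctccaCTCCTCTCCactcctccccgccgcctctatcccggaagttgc
Rps27l, further start: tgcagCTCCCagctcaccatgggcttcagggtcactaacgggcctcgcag

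Among the genes closest to the family, the longest run in the printed stretch had 20 bases in Rpl27a, 11 in Rps12, 6 in Rps13 and 3 in Rpl23. It had 11 in Rpl28, 10 in Rpl38 and Rps6, 7 in Rpl12, 5 in Rpl27, and 9 and 5 at the starts of Rps27l. Long and short runs thus both occurred among the genes closest to the family. The probe sets chosen for these genes lie on other chromosomes, so the printed starts need not be those of the transcripts measured. The marked run of 9 in Rps27l begins at position -22 and ends before the start. An equally long run that is not in capitals follows it and also ends before the start. Fixed motifs were searched on both strands of the whole windows. CCGGAAG, a core that ETS family factors bind, was found in 17 of the 53 members' windows (32.1%) and in 8.9% of all windows. CTTTCC was found in 24 (45.3%) against 26.6%, and windows can hold it as part of a pyrimidine run. AAGATGG, part of the YY1 motif, was found in 4 (7.5%) against 6.3%, and TATAAA in 5 (9.4%) against 13.6%. Of the genes shown, Rpl27a, Rpl38, Rps6 and Rps27l (at the first start shown) held CCGGAAG, and the windows of Rps12, Rps13, Rpl23, Rpl28, Rpl27 and Rpl12 did not hold these letters. A match is a description of the letters only.

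The level of the ribosomal protein genes as a group overlapped between all 8 conditions, and was higher on the injured side in 5 of 5 array numbers without peptide. This level on an array was taken as the mean log2 signal over the 55 genes, each centred on its own mean over the 40 arrays. The group means of this level were -0.02 ± 0.07 (SD, n = 5) for Vehicle, -0.05 ± 0.13 for IDR, 0.04 ± 0.13 for LPS and -0.08 ± 0.05 for LPS with IDR. In the LPS/HI groups they were -0.02 ± 0.17 in the uninjured and 0.08 ± 0.16 in the injured hemisphere, and with peptide -0.02 ± 0.14 and 0.07 ± 0.18. Injured minus uninjured, by array number, was 0.139, 0.089, 0.054, 0.066 and 0.111 without peptide and 0.076, 0.073, 0.098, 0.331 and -0.142 with peptide. All 5 numbers were thus higher on the injured side without peptide and 4 of 5 with it, which is given with no test. Differences between the groups held 15.5% of the variance of the level, and differences between array numbers held 31.4%. Any split of the arrays holds some of the variance by chance, and neither share was tested.

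**Figure D1:**
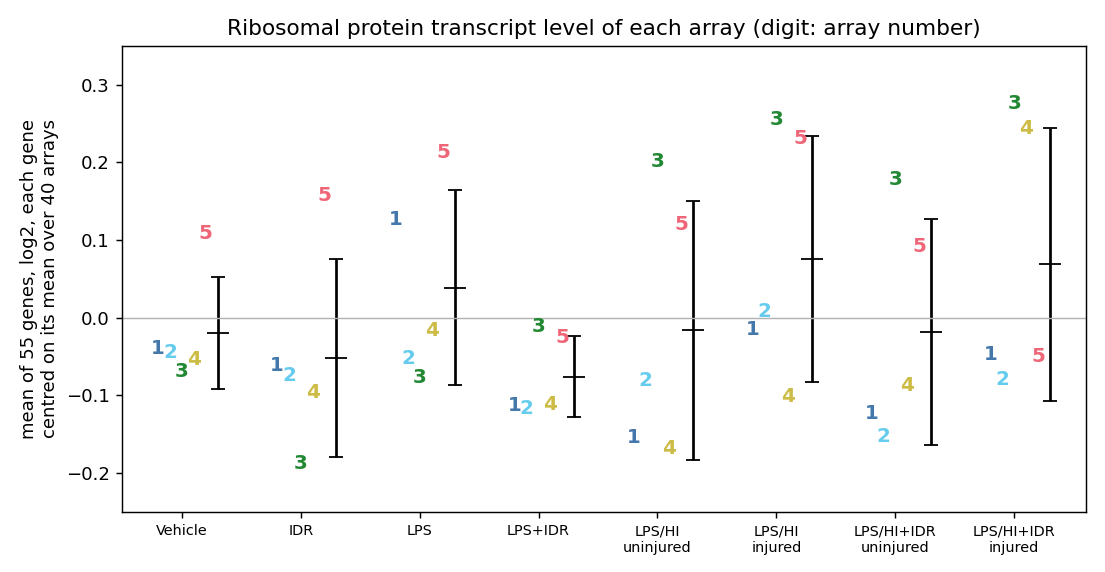
Mean log2 level of the 55 ribosomal protein genes on each array (vertical axis, each gene centred on its mean over the 40 arrays) for the 8 groups (horizontal axis); digits are array numbers and bars show the group mean and SD over 5 arrays. Arrays ran from -0.19 to 0.28, and numbers 3 and 5 were often high.

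In 7 of the 8 groups the arrays spanned more (0.177 to 0.369) than the group means did, and in LPS with IDR they spanned 0.106. In the Vehicle group the levels of arrays 1 to 5 were -0.04, -0.04, -0.07, -0.05 and 0.11. In the injured hemispheres without peptide they were -0.01, 0.01, 0.26, -0.10 and 0.23, and in the uninjured hemispheres -0.15, -0.08, 0.20, -0.17 and 0.12. Thus arrays 3 and 5 were high in both hemispheres and arrays 1, 2 and 4 low or near 0. With peptide the injured hemispheres had -0.05, -0.08, 0.28, 0.24 and -0.05, and the uninjured ones -0.12, -0.15, 0.18, -0.09 and 0.09. Array 3 was again high on both sides, whereas arrays 4 and 5 were not alike between the hemispheres. Over the 8 groups, array 5 lay above its group's mean in 7 groups and array 2 in 0. On the highest array, 53 of the 55 genes were above their own mean, and on the lowest, 3.

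Within groups the genes varied together. Over the 40 arrays, after subtracting each group's mean, the correlation of a gene with the mean of the other members had a median of 0.77, was above 0.8 for 25 of 55 genes and was below 0 for 4. The median was 0.68 for large subunit genes and 0.85 for small subunit genes. The genes closest to the common level, at 0.97, were Rpl23, Rpl27a and Rpl37a of the large subunit and Rps12 and Rps13 of the small. Of the 1485 pairs of members, 87.9% had a correlation above 0, with a median of 0.42. These arrays share tissue, normalisation and handling, so the correlations describe the arrays and are given without a test.

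The range of the swing was largest in Rps28, with an SD within groups of 0.41, followed by Rps21 (0.38), Rps19 (0.36), Rps12 (0.36) and Rpl27a (0.34). RPS28 and RPS21 are small proteins of the small subunit that take part in maturing its RNA, and RPS19, the protein most often mutated in Diamond-Blackfan anaemia, is needed for the same subunit. The swing was smallest in Rpl19 (0.07), Rpl41 (0.07), Rps6 (0.07), Rpl4 (0.08) and Rpl34 (0.08). RPS6 is the substrate of S6 kinase that is often used as a readout of mTORC1. The median over members was 0.16, and over all genes 0.13. Rps28 had signals of 10.15, 10.22, 10.17, 10.21 and 10.76 in the Vehicle arrays and 10.16, 10.26, 11.06, 10.13 and 11.03 in the injured hemispheres without peptide. Rps12 had 10.24, 10.23, 10.18, 10.28 and 10.74 in Vehicle and 10.32, 10.28, 10.94, 10.11 and 10.97 in the same hemispheres. In both genes the arrays that stood high were those with a high level of the whole family, and the 2 groups overlapped.

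**Figure D2:**
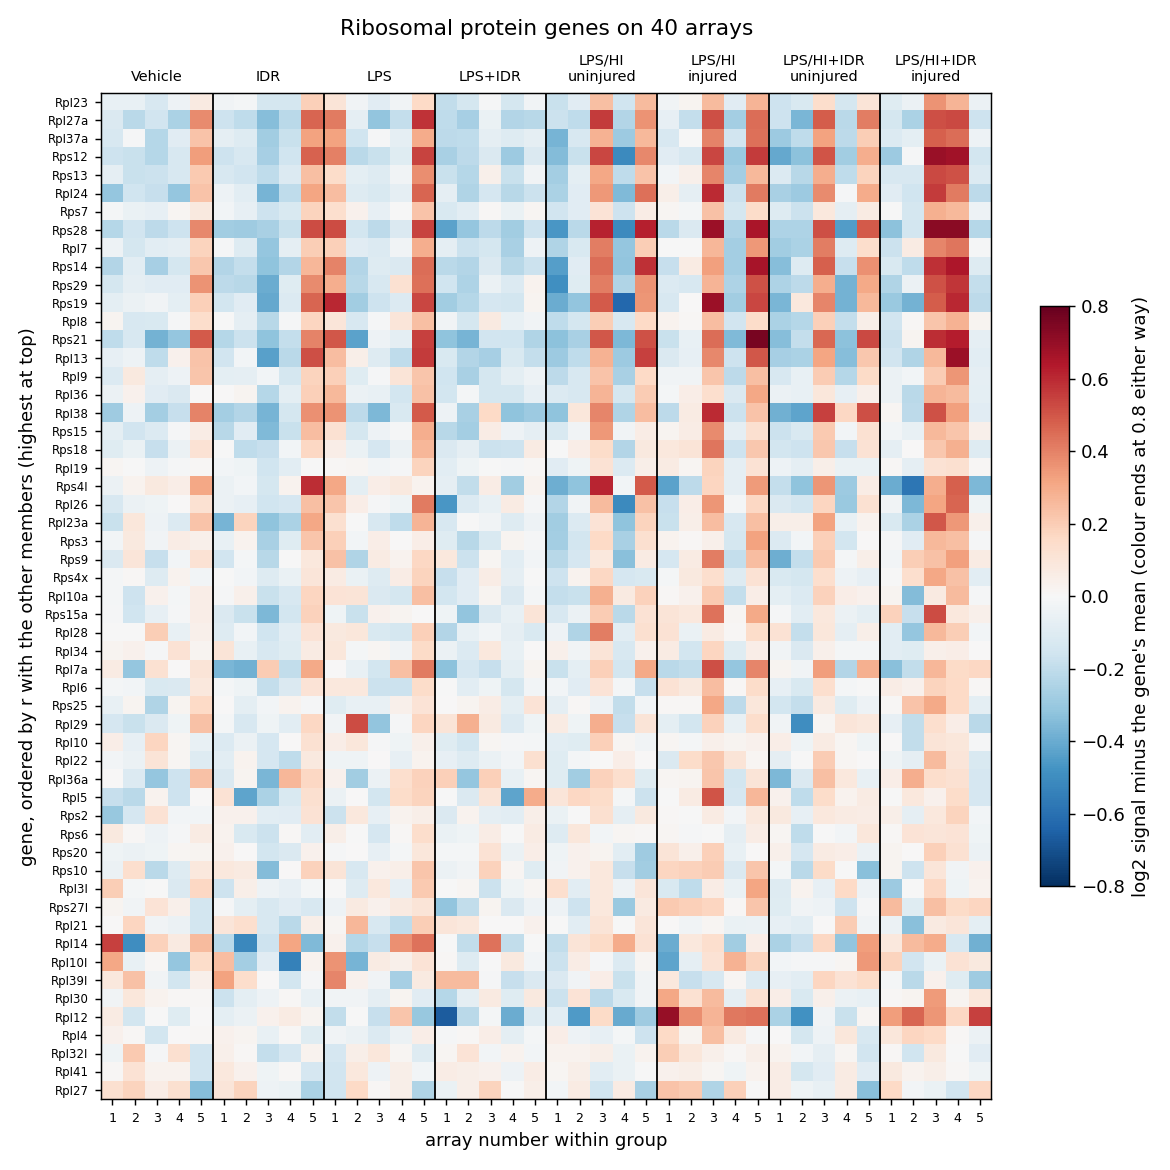
Each of the 55 ribosomal protein genes (rows, ordered by correlation with the other members) on the 40 arrays (columns, grouped by condition and numbered 1 to 5); colour is log2 signal minus the gene's mean. Whole columns are red or blue in the upper rows, while Rpl12 is red in all 10 arrays of the injured hemispheres and Rpl27 runs opposite to the rest.

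A few members did not follow the family. Rpl27 had a correlation of -0.71 with the other members, Rpl41 -0.34, Rpl32l -0.05, Rpl4 -0.02 and Rpl12 0.06. Rpl27 had 11.17, 11.22, 11.10, 11.17 and 10.70 in the Vehicle arrays, so that array 5, the highest of the group for the family, was the lowest for Rpl27. The probe set that stood for Rpl27 lies among probe sets of the gene's own chromosome. Its other probe sets, placed on other chromosomes, had correlations of 0.28 and 0.80 with the mean level of the 55 genes, against -0.70 for the chosen one. The probe sets of this gene therefore disagreed in sign.

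Genes outside the family shared this variation. Of 19882 other genes, 910 (4.58%) had a correlation above 0.8 with the mean level of the 55 members, and 959 (4.82%) had one below -0.8. The nearest were Hint1 (0.98), Selenoh (0.97), Drap1, Tmsb4x and Tmsb10 (0.96 each), and the most opposite were Dnm1l (-0.98) and Akap6 (-0.97). Without the 2 arrays farthest from the median level, Hint1 had 0.99 and Dnm1l -0.97. The first principal component of the within-group values of all other genes held 28.7% of their variance and had a correlation of 0.91 with the member level. Among the gene lists, the 7 ribosomal protein genes outside the symbol pattern (such as Rplp1 and Fau) followed the level with a correlation of 0.93. Subunits of the respiratory chain and ATP synthase had 0.86 (69 genes), proteasome subunits 0.76 (39), mitochondrial ribosomal proteins 0.75 (77) and other TOP mRNA genes 0.71 (15). Ribosome biogenesis genes had -0.01 (30 genes). Of the marker lists, the endothelial one had -0.65 (8 genes) and the astrocyte one -0.48 (8), while the neuronal one had 0.13 (12). The part of cell makeup or RNA quality in this variation was not tested.

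The position of the probe sets bears on what was measured. A probe set was placed on the chromosome of its neighbours in the array's numbering (10 on each side, at least 70% of them on 1 chromosome). The method placed 99.2% of 2000 genes with a single probe set, 99.85% of them on the right chromosome. Of the 181 member probe sets, 50 lay on the gene's own chromosome, 128 on another one and 3 could not be placed. For 27 of the 55 members the chosen probe set lay on another chromosome than the gene (whether these detect processed pseudogenes was not tested). The correlation with the other members had a median of 0.88 in these 27 and 0.50 in the 28 with a set on their own chromosome. For 19 members both kinds existed, with medians of 0.88 for the chosen set and 0.81 for the one on the gene's chromosome. The gap was largest in Rpl19, with 0.85 for the chosen set and -0.37 for the other, and Rps13 had 0.97 and 0.16.

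Signals of different probe sets cannot be ranked as transcript levels, so the following means describe each set alone. The highest mean log2 signals were those of Rps6 (13.21), Rpl9 (12.96), Rps2 (12.65), Rpl36 (12.65) and Rpl41 (12.58). The lowest were those of Rpl39l (3.98), Rpl3l (5.53), Rpl10l (5.91), Rpl7a (6.24) and Rpl12 (7.82). Rpl3l, a paralogue of Rpl3 restricted to heart and skeletal muscle, Rpl10l, a testis retrogene of the X-linked Rpl10, and Rpl39l, a paralogue best known from testis, were all among them. None of these paralogues was called in any of the 12 comparisons of 2 groups. The duplicated or variant genes Rpl32l, Rps4l and Rpl36a had means of 8.21, 8.66 and 11.51 and were not called either.

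LPS and the peptide were compared first in the brains without HI. LPS against Vehicle asked what the endotoxin did after 6 h. Of the 55 genes, 0 were called by limma at an adjusted p under 0.05, while 0.833% of all genes were; at an unadjusted p under 0.05 the numbers were 0 members and 6.22% of all genes. The log2 differences ran from -0.07 to 0.23 with a median of 0.06, and the median over all genes was -0.02. Of the 55, 42 were positive, beside 41.1% of all genes. The smallest p-values belonged to Rpl24 (0.23 ± 0.13, SE, adjusted p = 0.902), Rpl5 (0.13 ± 0.08, 0.904) and Rpl26 (0.14 ± 0.08, 0.918). The median half-width of the 95% interval of a member's difference was 0.17, before adjustment for the number of genes. A call needed more than this for a typical member, so somewhat larger changes of a single gene could also be missed. Without LPS array 5 the member median was 0.01.

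The peptide alone gave 0 calls among members and 0% among all genes, with 0 members and 1.61% of genes at an unadjusted p under 0.05. Rpl14 had the smallest p (-0.30 ± 0.17, adjusted p = 1), followed by Rpl30 (-0.09 ± 0.05) and Rps6 (-0.09 ± 0.06). Peptide before LPS, compared with LPS alone, also gave 0 member calls and 0% of genes. Here 12 members had an unadjusted p under 0.05, all of them lower with the peptide, beside 13.4% of all genes in either direction. The median member difference was -0.10, or -0.06 without LPS array 5, and that of all genes was -0.02. Rpl9 had -0.21 ± 0.07 (adjusted p = 0.326), Rps28 -0.40 ± 0.14 (0.326) and Rps27l -0.18 ± 0.07 (0.333). Rps28 signals were 10.90, 10.23, 10.17, 10.26 and 10.92 with LPS and 9.95, 10.07, 10.17, 10.1 and 10.21 with LPS and peptide. Arrays 1 and 5 of the LPS group were the high ones, for Rps28 as for the family, and the groups overlapped.

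LPS with the peptide against the peptide alone gave 0 member calls beside 1.47% of all genes; at an unadjusted p under 0.05, 1 member (Rpl12) stood beside 10.5% of genes. Rpl12 was lower by -0.28 ± 0.10 (adjusted p = 0.317), ahead of Rpl9 (-0.11 ± 0.07) and Rps4l (-0.18 ± 0.12). The interaction of LPS and peptide gave 0 member calls beside 0.00502% of all genes, and 0 members beside 4.38% of genes at an unadjusted p under 0.05. Rpl24 (-0.32 ± 0.18), Rpl9 (-0.17 ± 0.11) and Rpl36 (-0.18 ± 0.11) had an adjusted p of 0.86 each. These comparisons share the LPS and IDR arrays with one another.

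**Figure D3:**
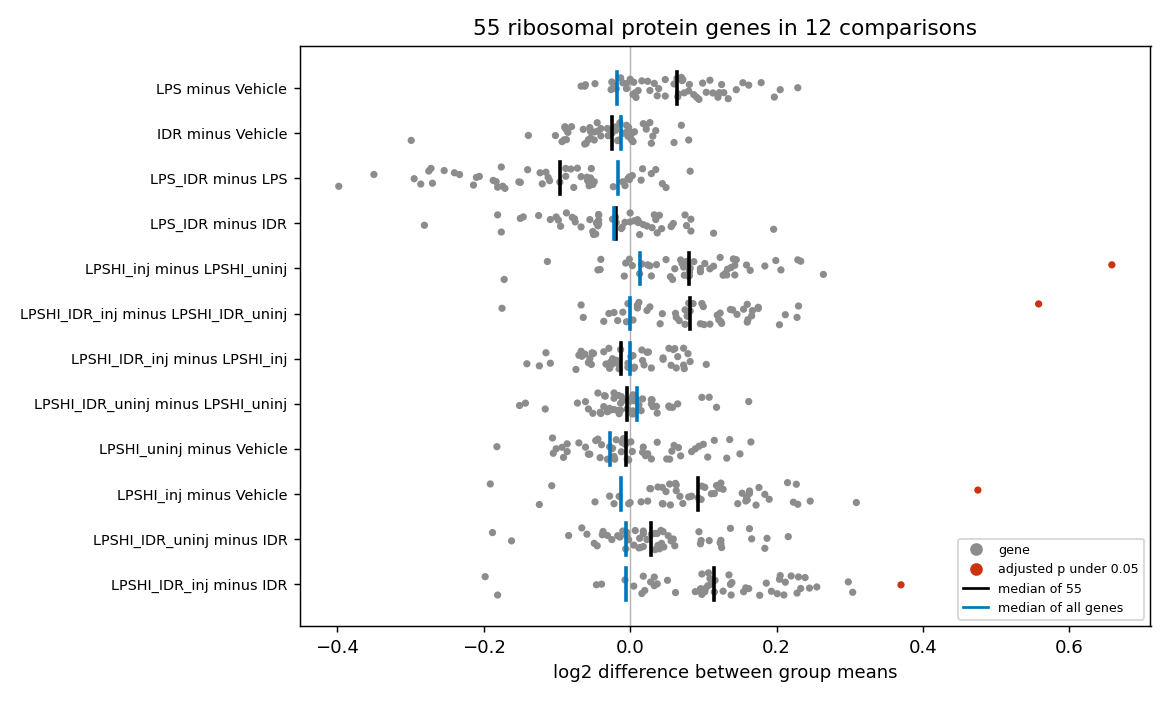
Log2 difference of each of the 55 genes (dots) in the 12 comparisons of 2 groups (rows, first group minus second; inj and uninj are the injured and uninjured hemispheres); red dots passed an adjusted p under 0.05, black bars are member medians and blue bars medians of all genes. Rpl12 is the red dot in each of the 4 rows with an injured hemisphere and a control side or control brain.

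In the injured hemisphere the probe set that stood for Rpl12 rose. It was the only one of the 55 to pass in the fit of the compared groups alone, without array number as a block. The 6 probe sets that list the Rpl12 mRNA, all placed on other chromosomes than the gene's, differed by -0.06 to 0.12 without peptide and were not called. With the number as a block, 3 more members passed without peptide, as given further on. Rpl12 encodes a protein of the stalk base of the large subunit, where elongation factors dock. In the uninjured hemispheres without peptide its log2 signals were 7.73, 7.36, 7.97, 7.41 and 7.53, and in the injured ones 8.51, 8.19, 8.09, 8.24 and 8.25. Every injured array was above every uninjured array. The difference was 0.66 ± 0.11 (adjusted p = 0.00679), beside 2.18% of all genes called higher. With peptide the uninjured hemispheres had 7.56, 7.33, 7.79, 7.64 and 7.83 and the injured ones 8.15, 8.28, 8.17, 7.98 and 8.36, again without overlap. That difference was 0.56 ± 0.10 (adjusted p = 0.0104), beside 1.8% of all genes called higher. The 2 differences were not shown to differ: in the interaction of injury and peptide Rpl12 had -0.10, with 0 of 55 members and 0% of genes called, and 0 members and 1.81% of genes at an unadjusted p under 0.05. The smallest p-values there were those of Rpl39l (-0.17 ± 0.11), Rpl14 (0.25 ± 0.20) and Rps6 (0.08 ± 0.08), with an adjusted p of 1 each.

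Rpl12 also stood above the brains without LPS or HI. Vehicle brains had 7.88, 7.67, 7.81, 7.72 and 7.82 and IDR brains 7.74, 7.77, 7.85, 7.88 and 7.84, all of them below the 10 injured arrays. Injured hemispheres exceeded Vehicle by 0.47 ± 0.08 (adjusted p = 0.00179; 4.45% of all genes were called higher), and injured hemispheres with peptide exceeded IDR by 0.37 ± 0.07 (0.00992; 3.52%). In the fit of the compared groups alone and without the block, Rpl12 was the only member called in each of these comparisons. Other settings that called further members are given at the end. The uninjured hemispheres were lower than the same controls by amounts that did not pass the test, -0.18 ± 0.10 against Vehicle (0.871) and -0.19 ± 0.09 against IDR (0.923). The order of the group means was therefore both injured groups at 8.26 and 8.19, then IDR (7.82), Vehicle (7.78), LPS (7.72), the uninjured hemispheres at 7.63 with peptide and 7.6 without, and LPS with IDR (7.54). Neighbours within the last 6 groups differed by less than their spread. When each array in turn was left out, Rpl12 was called in 10 of 10 fits of each of these 4 comparisons, with differences between 0.33 and 0.75.

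**Figure D4:**
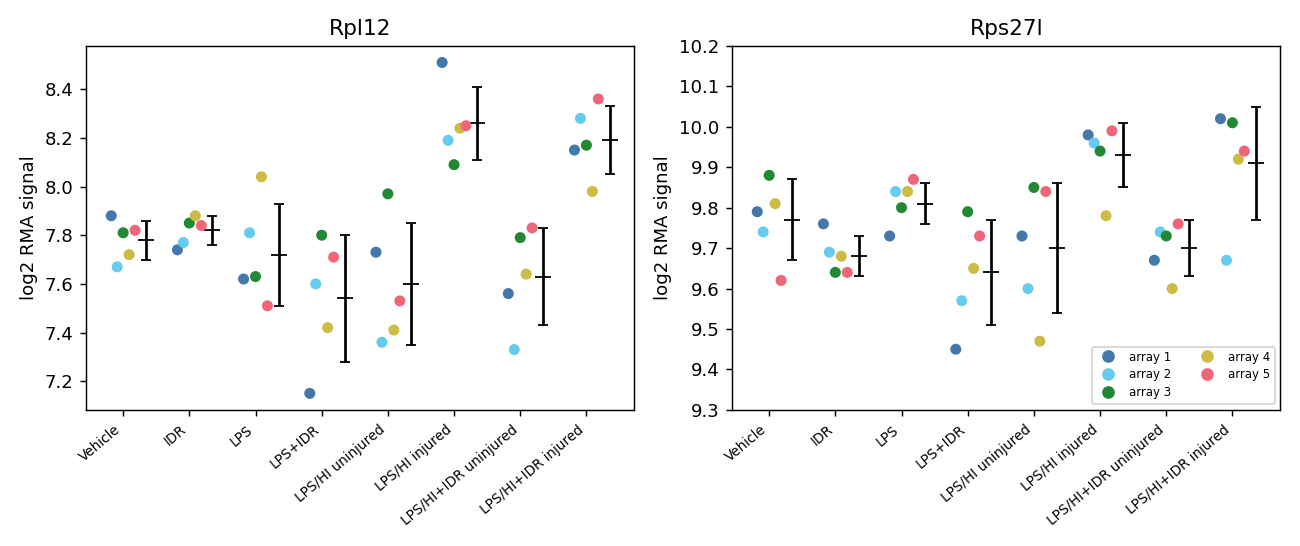
Log2 RMA signal (vertical axes) of Rpl12 (left) and Rps27l (right) on each of the 5 arrays of the 8 groups; colours are array numbers, and bars show the mean and SD. All 10 injured arrays of Rpl12 lie above the other arrays of their comparisons, whereas Rps27l overlaps between the hemispheres.

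The probe sets annotated to Rpl12 differed from one another. The probe set that carries the Rpl12 symbol alone (10471550) lists a cDNA clone and no RefSeq mRNA, and lies among probe sets of the gene's chromosome. A probe set shared with Snora65 (10415640) rose with it. Snora65 is a small nucleolar RNA gene that lies within Rpl12 in the RefSeq table. This probe set, however, lies among probe sets of chromosome 14, not of the gene's chromosome, and also lists no RefSeq mRNA. Its signals were 7.6, 7.29, 7.55, 7.46 and 7.21 in the uninjured and 7.92, 7.92, 7.94, 7.69 and 7.76 in the injured hemispheres without peptide, with no overlap. In a fit over all 34760 probe sets its difference was 0.43 ± 0.09 (adjusted p = 0.0608) without peptide and 0.51 ± 0.08 (0.0225) with peptide. Against Vehicle and IDR the same probe set differed by 0.33 ± 0.07 (0.0166) and 0.39 ± 0.07 (0.0211).
The 6 probe sets that list the Rpl12 mRNA, all shared with the symbol Gm32899, did not pass the test. By their neighbours they lie on chromosomes 1, 3, 10, 16 and X, and none lies on the gene's chromosome. Their differences between hemispheres ran from -0.06 to 0.12 without peptide and from -0.28 to 0.06 with peptide, and none was called. For example, probe set 10606261 had 12.48, 12.44, 12.81, 12.33 and 12.83 in the uninjured and 12.59, 12.53, 12.87, 12.45 and 12.84 in the injured hemispheres. These values followed the level of the family on each array, with arrays 3 and 5 high on both sides. In the fit over all probe sets, 10471550 itself had 0.66 ± 0.12 (adjusted p = 0.0363). What transcripts 10471550 and the other probe sets annotated to Rpl12 detect was not tested here.

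**Figure D5:**
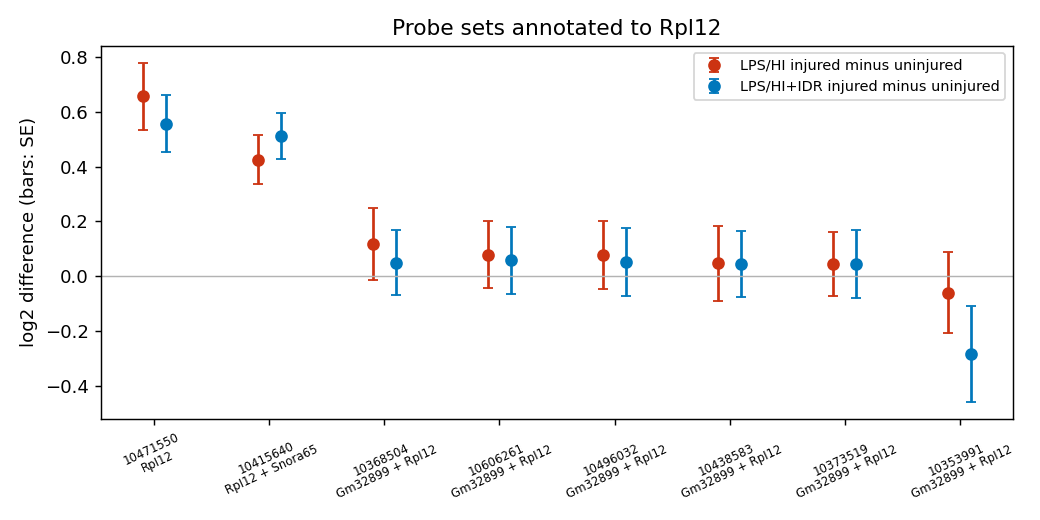
Log2 difference between injured and uninjured hemispheres (vertical axis; bars are SE) for the 8 probe sets annotated to Rpl12 (horizontal axis, with their gene symbols), without peptide in red and with peptide in blue. The probe set with the symbol alone and the one shared with Snora65 are high, and the 6 that list the mRNA lie near 0 or below. Only the probe set with the symbol alone is placed on the gene's chromosome.

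Arrays of the same number in the 2 hemispheres without peptide deviated together from their group means, with correlations over all genes of 0.39 to 0.65. With the number as a block, members with an unadjusted p under 0.05 went from 5 to 17 of 55, where all genes went from 15% to 25.4%, and 4 members were called higher in the injured hemisphere, beside 6.3% of all genes. They were Rpl12 (0.66 ± 0.10, adjusted p = 0.00411), Rps19 (0.26 ± 0.05, 0.0121), Rps15a (0.20 ± 0.05, 0.0276) and Rps27l (0.23 ± 0.06, 0.029). Rps19 shows how the pairing acts. Its signals were 9.71, 9.79, 10.60, 9.48 and 10.46 on the uninjured side and 9.98, 10.11, 10.79, 9.83 and 10.64 on the injured side, higher on the injured side in 5 of 5 numbers although the groups overlapped. Without the block its adjusted p was 0.684. Rps15a, which encodes another small subunit protein, went from 8.96, 9.04, 9.29, 8.87 and 9.20 to 9.19, 9.17, 9.52, 9.10 and 9.39, also higher in 5 of 5 numbers, with an adjusted p of 0.371 without the block. With peptide the same-number correlations went down to 0.09, and the numbers were not treated as pairing. The block there called Rpl12 alone (0.56 ± 0.09, adjusted p = 0.00587), beside 894 of 19937 genes in either direction. In that arm the uninjured and injured means were 10.11 and 10.15 for Rps19, and 9.06 and 9.22 for Rps15a.

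Rps27l had 9.73, 9.60, 9.85, 9.47 and 9.84 in the uninjured and 9.98, 9.96, 9.94, 9.78 and 9.99 in the injured hemispheres. It was higher in 5 of 5 numbers, and without the block it differed by 0.23 ± 0.08 (adjusted p = 0.166). With peptide the values were 9.67, 9.74, 9.73, 9.60 and 9.76 against 10.02, 9.67, 10.01, 9.92 and 9.94, a difference of 0.21 ± 0.07 (0.174). Array 2 of the injured hemispheres with peptide was the low one. In these hemispheres Rps27l exceeded IDR by 0.23 ± 0.07 (adjusted p = 0.0819), and by 0.29 (0.0164) without that array. This was the only 1 of the 10 fits with an array left out that called Rps27l, and the highest adjusted p among the 10 was 0.177. Over the 8 groups Rps27l and Rpl12 were the only members called by the moderated F test (adjusted p = 0.00499 and 4.16e-06), beside 15% of all genes, and Rpl30 came next (0.0849). In a fit with array number added, the F test took groups and array numbers together and called 6 members beside 19.7% of genes. A difference between array numbers alone could pass it, so it does not measure the groups and its members are not named.

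Injured hemispheres and Vehicle brains of the same number also deviated together, with correlations from 0.12 to 0.44. These are different pups, so a number cannot stand for a shared animal here. Of the 5 injured arrays, 3 correlated best with the Vehicle array of their own number. Here the block left Rpl12 (adjusted p = 0.00163) and added Rpl5 (0.25 ± 0.07, 0.0483), beside 5.63% of genes called higher. Rpl5 had 11.20, 11.17, 11.41, 11.22 and 11.39 in Vehicle and 11.38, 11.45, 11.89, 11.25 and 11.65 in injured hemispheres, with overlap, and an adjusted p of 0.185 without the block. The probe set that stood for Rpl5 lies among probe sets of another chromosome than the gene's. In the comparison of injured hemispheres with peptide and IDR brains, arrays of the same number did not deviate together, and with the block 0 members passed beside 1.82% of genes called higher, with Rpl12 at an adjusted p of 0.0542.

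Apart from Rpl12 the injured hemispheres showed small positive differences. The median member difference was 0.08 without peptide and 0.08 with peptide, with 47 and 45 of 55 positive, against medians over all genes of 0.01 and 0. With single arrays left out these medians ran from 0.03 to 0.14 without peptide and from 0.05 to 0.14 with it. Against Vehicle and IDR the medians were 0.09 and 0.11, with 47 and 50 positive. The medians over all genes were -0.013 and -0.006 there, with 45.5% and 47.7% of genes positive. The comparisons share arrays and the genes vary together, so these counts are not independent of one another. Members with an unadjusted p under 0.05 numbered 5 without and 4 with peptide, where 15% and 14.4% of all genes had one.

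No member passed the test between uninjured hemispheres and brains without LPS or HI. Against Vehicle, 0 members were called beside 0.436% of all genes, and 0 had an unadjusted p under 0.05 beside 6.58% of genes. Rpl5 (0.15 ± 0.08, adjusted p = 0.83) had the smallest p, ahead of Rpl12 and Rpl30 (-0.10 ± 0.07). With peptide against IDR, 0 members were called beside 0.201% of genes, and 1 (Rpl12) had an unadjusted p under 0.05 beside 5.28%. Rpl10l (0.19 ± 0.12) and Rpl23a (0.17 ± 0.13) came next.

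The peptide made no detectable difference to a member in either hemisphere. In the injured hemispheres 0 members and 0% of genes were called, with 0 members and 1.39% of genes at an unadjusted p under 0.05. Member differences ran from -0.14 to 0.10 with a median of -0.01, and the median half-width of their 95% intervals was 0.22. Rps10 (-0.14 ± 0.08), Rpl32l (-0.11 ± 0.07) and Rpl5 (-0.12 ± 0.11) had the smallest p. In the uninjured hemispheres 0 members and 0% of genes were called, with 0 members and 1.89% of genes at an unadjusted p under 0.05. There the smallest p-values were those of Rpl39l (0.12 ± 0.07), Rpl23a (0.16 ± 0.10) and Rpl10l (0.11 ± 0.08), all with an adjusted p of 1.

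Lists of related genes are given beside the shares of all genes called between hemispheres, which were 2.18% higher and 0.813% lower without peptide and 1.8% and 0.702% with it. Of 30 ribosome biogenesis genes, which make rather than form the ribosome, 3 rose and 0 fell without peptide. They were Gnl3 (0.41 ± 0.07, adjusted p = 0.00673), a nucleolar GTPase, Nop58 (0.33 ± 0.06, 0.0131), a core protein of box C/D small nucleolar RNPs, and Ddx21 (0.37 ± 0.09, 0.0341), a nucleolar helicase. With peptide 2 of 30 rose, Gnl3 (0.41 ± 0.07, 0.00686) and Nop58 (0.32 ± 0.07, 0.0242). With the number as a block the count was 8 of 30 without peptide, where 6.3% of all genes were called higher. Of 21 genes of translation control, Eif4ebp1, the mTORC1 substrate that restrains eIF4E, rose by 0.57 ± 0.09 (0.00541) and, with peptide, by 0.44 ± 0.09 (0.0216), where Sesn2, a stress-induced mTORC1 inhibitor, also rose (0.37 ± 0.08, 0.0319). Of 77 mitochondrial ribosomal proteins 3 rose without peptide (Mrpl39, Mrps31 and Mrpl9, by 0.23 to 0.29), and with peptide 1 fell (Mrpl36, -0.29 ± 0.07, 0.0485). None of the 7 ribosomal protein genes outside the symbol pattern, 15 other TOP mRNA genes, 69 respiratory chain subunits or 39 proteasome subunits was called between hemispheres in either arm; with the block, 2 proteasome subunits rose without peptide, as did 5 mitochondrial ribosomal proteins, while 1 of these fell.

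Markers of cell types that moved in the same hemispheres are given beside these results. Of 8 endothelial markers, Pecam1 rose without peptide and Pecam1 and Cdh5 with it. With the number as a block, 1 rose and 1 fell without peptide, and 2 rose and 1 fell with peptide. With peptide the numbers were not treated as pairing, and block counts of that arm are given here only for comparison. The mean level of the endothelial list, centred over the 40 arrays, ran from -0.09 to 0.20 in the injured and from -0.15 to 0.22 in the uninjured hemispheres without peptide. Of 7 microglial markers P2ry12 fell without peptide, and with the block 1 rose and 1 fell there. With peptide 0 microglial markers passed without the block and 1 fell with it. The microglial list ran from -0.01 to 0.27 in the injured and from 0.03 to 0.30 in the uninjured hemispheres without peptide. Of 12 neuronal markers 0 passed without the block, and with it 3 fell without peptide and 1 fell with peptide. The neuronal list ran from -0.09 to -0.02 in the injured and from 0.00 to 0.11 in the uninjured hemispheres without peptide. Of 9 oligodendrocyte lineage markers Pdgfra fell without peptide (-0.35 ± 0.09, adjusted p = 0.0453). With the block 2 of these fell without peptide and 0 passed with it. Of 8 progenitor markers Nes rose with peptide (0.34 ± 0.08, 0.0438), whereas the median difference of that list was -0.035. With the block 1 progenitor marker rose and 1 fell without peptide, and 1 rose with peptide. The progenitor list ran from -0.18 to -0.08 in the injured and from -0.33 to -0.02 in the uninjured hemispheres with peptide. Of 8 astrocyte markers 0 passed without the block, but with it Gfap passed without peptide (0.38, 0.00247), and 2 rose with peptide. The astrocyte list ran from -0.03 to 0.16 in the injured and from -0.09 to 0.09 in the uninjured hemispheres without peptide. The 8 neutrophil markers had mean signals from 4.60 (Ly6g) to 6.13 (Mpo), and 0 were called between hemispheres in either arm. Their list ran from 0.02 to 0.16 in the injured and from -0.06 to 0.08 in the uninjured hemispheres without peptide, and from 0.02 to 0.11 against -0.12 to 0.03 with peptide. The part of these cell types in the difference of Rpl12 was not tested.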

How the data were processed

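The authors deposited log2 RMA signals, 1 per probe set and array, for 34760 probe sets on 40 arrays. Per the submitters' processing notes these were made with RMA in the affy package; versions are not given in the sources used here. RMA corrects background, quantile normalises arrays and summarises probes, so a shift of all genes would not be visible. Symbols came from the array's annotation: 21640 probe sets had 1 symbol, 1321 several and 11799 none. The highest-mean single-symbol probe set stood for each of 19937 genes, with no filter.

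Groups were compared with limma 3.58.1 (lmFit, eBayes; R 4.3.3, and the data.table package, version 1.17.8) on the arrays of the groups compared, with Benjamini-Hochberg adjustment over all genes and calls at an adjusted p under 0.05. There were 12 comparisons, 2 interactions and an F test over 8 groups. Errors of differences are SE and of group means SD (n = 5); the number of arrays limits precision. The fit was tested on simulated data. Descriptions used Python with pandas 2.3.3 and numpy 2.4.6.

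The array numbers were treated as pairing where every same-number correlation of deviations from group means exceeded 0.1: injured against uninjured hemispheres without peptide, and injured hemispheres without peptide against Vehicle. The labels do not state a pairing, and injured hemispheres and Vehicle brains come from different pups. Named members were those called (up to 5 per direction), otherwise the 3 smallest p; the 5 highest and lowest means and within-group SDs; paralogues; and the 3 smallest p of the F test. From each other list up to 3 called genes, or 2 by p, could be named. The members and lists were chosen with earlier results of these data known. The sex list is not reported by gene.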

Additional observations from a re-analysis of the deposited data

Results flagged for a closer look

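In groups of 5 arrays, an array was listed when its gap to the nearest other array exceeded Dixon's critical value of 0.71 of the group's range. Of 72 such checks, 8 met this, and chance gives about 1 in 20. In the Vehicle group, array 5 had the highest level of the whole family (0.108; the gap was 0.837 of the range). On the same array Rps28 was high at 10.76 (0.88), Rps12 at 10.74 (0.823) and Rps19 at 10.3 (0.817), while Rpl27 was low at 10.7 (0.759). In the IDR group, array 5 was high for Rps28 at 10.9 (0.859) and Rps12 at 10.88 (0.807). These values share an array or the common variation of the family and are not independent. Among the injured hemispheres without peptide, array 4 was low for Rps27l at 9.78 (0.733), and this array was still above 3 of the 5 uninjured arrays.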

How the results depend on the processing

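The counts of called members stayed within 1.5 times of those reported under the mean of probe sets, a filter at log2 6, array median centring, a trended and robust prior and the Xist covariate. Injured against uninjured hemispheres without peptide gave 1 call, 4 with the replicate block and 3 when all 8 groups were fitted together (Rpl12, Rpl30 and Rps27l). Injured against Vehicle gave 1, but 2 with the replicate block and 2 with probe sets on the gene's own chromosome, chosen after seeing the data (Rpl12 and Rpl23a). Injured with peptide against IDR gave 1, but 0 with the replicate block, 2 in the fit of all 8 groups and 1 to 2 when arrays were left out in turn. The F test gave 2, and 2 to 3 without single arrays. With array number added it gave 6, but that test took groups and array numbers together. For the F test, for injured against uninjured hemispheres with peptide and for injured hemispheres with peptide against IDR, the array numbers did not meet the pairing rule in all groups. Of 388 alternatives for single genes, 378 kept direction and side of the threshold, 6 came to pass it, 1 no longer passed and 3 changed sign. The sign changes were Rpl5 between hemispheres with peptide (0.012, and -0.023 with array median centring) and Rpl23a between uninjured hemispheres with and without peptide (0.162, but -0.027 for the mean of probe sets and -0.062 for the set on its own chromosome). None of these passed the test, and the cause was not tested. RMA signals carry no counts, and 6 members had a mean under log2 8, where signals lie closer to background.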

Other observations

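Small nucleolar RNA genes that lie within ribosomal protein genes were looked at after the values of Rpl12 were seen. Of 21 such genes measured, Snord42b was called higher in the injured than in the uninjured hemisphere without peptide, and 0 were called with peptide, where 4 had an unadjusted p under 0.05. Against Vehicle, Snord42b and Snord55 were called higher, and with peptide against IDR, Snord16a and Snord42b were. The shares of all genes called higher in these 4 comparisons were 2.18%, 1.8%, 4.45% and 3.52%.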
